A study of Mus musculus with 3 samples.

Results

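A set of 9 genes of the ERK signaling pathway was examined for HBO1 binding in mouse embryonic stem cells (ESCs) that were grown in a MEK inhibitor. The genes were listed by name, because the culture medium held PD0325901, and the list was chosen with earlier results of these data known. All 9 were found among the 21938 protein-coding genes of GENCODE vM21. They are Map2k1, which encodes the kinase MEK1, the feedback inhibitors Spry2, Spry4, Dusp4 and Dusp6, and the transcription factor genes Etv4, Etv5, Egr1 and Fos. HBO1 peaks within 50 kb of them numbered 20, of 13823 in all.

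The cells were Oct1 deficient ESCs in all 3 samples, grown with 3 µM CHIR99021, an inhibitor of the kinase GSK3, 1 µM PD0325901, an inhibitor of MEK, which the labels write as PD03259010, LIF and ascorbic acid. Mouse embryonic fibroblast feeders, arrested with mitomycin C, were depleted on gelatin before the cells were crosslinked with 1% formaldehyde. Chromatin was immunoprecipitated with a rabbit HBO1 antibody in 2 ChIP samples, and 1 input sample was sheared chromatin reserved before immunoprecipitation. No sample was grown without PD0325901 and none had Oct1, and neither RNA nor ERK activity was measured, so binding could not be compared with and without MEK inhibition. A single peak list was deposited. It was assumed to combine the ChIP samples, so the values have no spread between replicates and no p-value is given. The labels of the second ChIP sample give its antibody as HBO2, while its title and the study's methods name HBO1. A supplementary title of the study calls the cells of this peak list WT, and the labels, which name Oct1 deficient ESCs, were followed.

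HBO1 is a lysine acetyltransferase, also called KAT7, that acetylates histones H3 and H4 in complexes with the adaptor proteins of the JADE or BRPF families. In the ERK pathway, a growth factor such as FGF4 binds its receptor, adaptors load Ras with GTP, and Raf then activates MEK, which activates ERK. ERK switches on early target genes through the ETS factors and SRF, and among its targets are phosphatases and Sprouty proteins that dampen the same pathway. In mouse ESCs this pathway promotes the exit from naive pluripotency, and its inhibition by PD0325901 helps to keep the cells undifferentiated.

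HBO1 peaks lay at the start of Map2k1, Spry2 and Etv5, and none was called at the starts of the other 6 genes. A peak was counted at a transcription start site (TSS) when its edge lay within 1 kb of the TSS of any transcript of the gene. The 3 genes of 9 compare with 4764 of all 21938 protein-coding genes, or 21.7%. A TSS lay inside a peak at Spry2 and Etv5, against 10.9% of protein-coding genes. A peak touched the body of the same 3 genes, against 28.2%. Within 50 kb of the gene, Spry4 and Etv4 were added, which gave 5 of 9 genes against 62.0%. Dusp4, Dusp6, Egr1 and Fos had no peak within 50 kb, as did 38% of protein-coding genes. With 9 genes, these counts do not set the list apart from the background.

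The 20 peaks did not all belong to the genes of the list. Of these, 5 lay at a TSS of a listed gene, 5 more in a gene body away from its TSS and 10 outside the genes. For 5 of the 20, the nearest TSS of a protein-coding gene was that of another gene. The 9 genes had 34 annotated transcripts with 30 distinct TSSs, and 6 of these TSSs lay within 1 kb of a peak. The same share over all annotated TSSs was not computed.

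**Figure D1:**
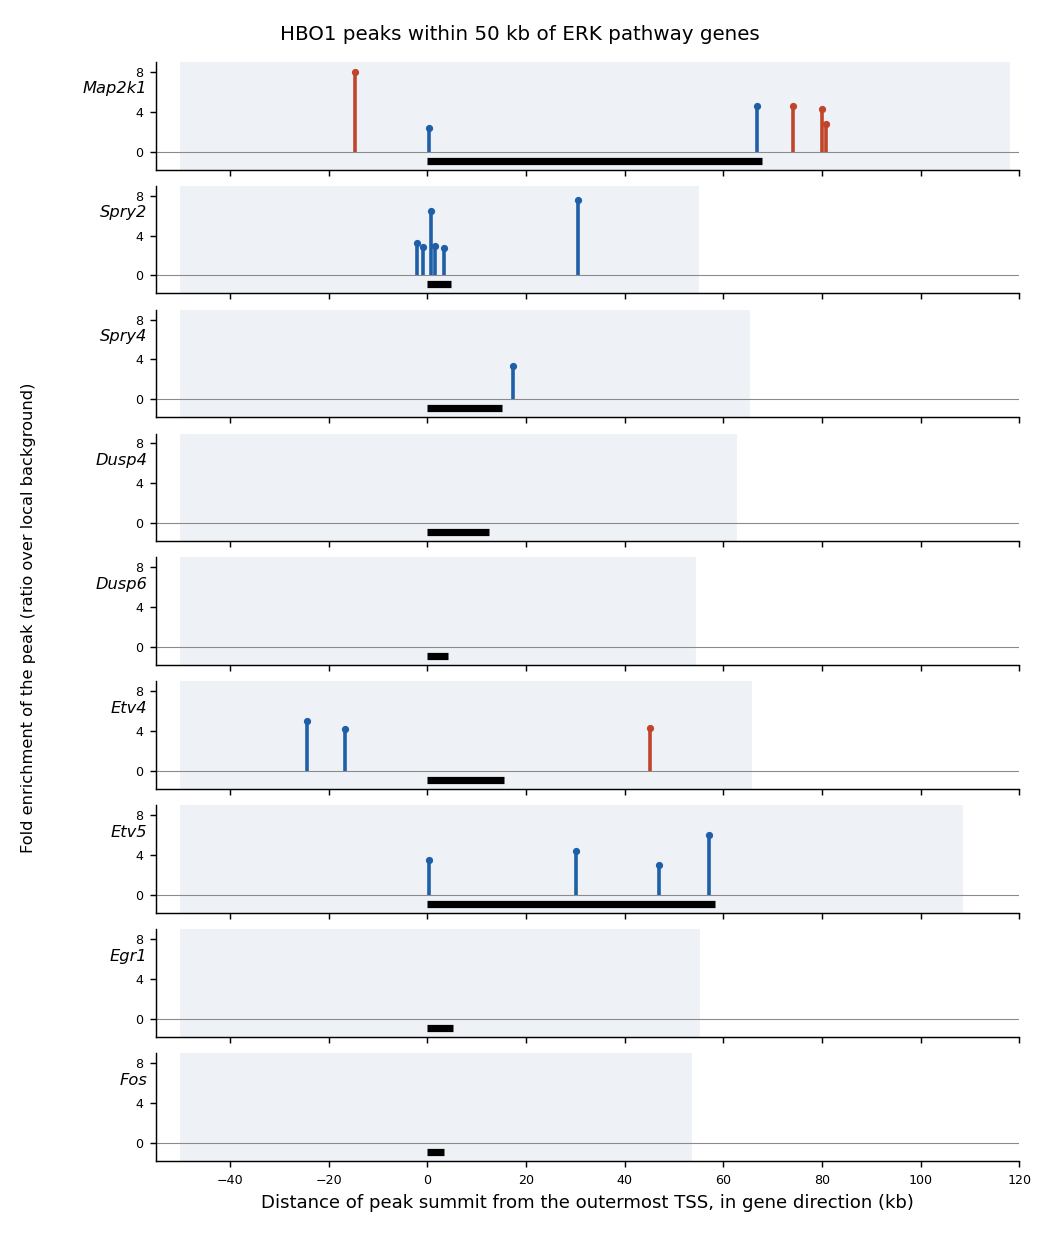
HBO1 peaks within 50 kb of each gene, by the distance of the summit from the outermost TSS in kb, in the direction of transcription (x axis), and by the authors' fold enrichment (y axis). Black bars are the genes and shaded areas the 50 kb around them. Blue stems are peaks whose nearest protein-coding TSS is that of the gene, and red stems peaks nearer to another protein-coding gene. Noncoding genes were not considered for the colours. Spry2 has 5 peaks close together in and just before the gene, and 4 genes have none.

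Spry2, a Sprouty protein that restrains signaling from receptor tyrosine kinases, carried the densest binding among the 9 genes. The gene lies on the minus strand of chromosome 14 of mm10, at chr14:105891947-105896819. It had 6 peaks within 50 kb, and 4.40% of protein-coding genes had at least 6. Of the 6, 5 lay in 6147 bp across the gene start. At least 5 peaks in the gene body or within 5 kb of it were found for 1.03% of protein-coding genes. That share counts long genes over their whole length, and no share was computed for a span of 6147 bp. The peak over the TSS ran from 105895870 to 105897159. With 1290 bp, it was wider than 99.1% of all peaks. Its fold enrichment, the authors' ratio of ChIP signal over the local background, was 6.45, and its −log10 q was 58.5. Among the 5004 peaks within 1 kb of a TSS of a protein-coding gene, 96.7% had a lower fold enrichment and 99.3% a lower −log10 q. The summit lay 715 bp inside the gene, in its intron.

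The 300 bases around this summit are shown because this peak had the highest −log10 q of the 20. They lie at chr14:105895954-105896253 of GRCm38, the assembly named mm10, and are printed 5′ to 3′ on the strand of the gene with CpG dinucleotides in capitals.
Spry2 intron summit: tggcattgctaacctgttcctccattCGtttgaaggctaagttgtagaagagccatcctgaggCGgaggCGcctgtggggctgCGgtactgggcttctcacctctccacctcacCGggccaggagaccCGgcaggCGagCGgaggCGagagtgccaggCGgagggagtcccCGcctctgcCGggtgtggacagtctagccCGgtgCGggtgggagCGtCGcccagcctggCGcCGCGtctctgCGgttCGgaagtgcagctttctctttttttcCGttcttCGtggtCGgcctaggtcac
This stretch had a GC content of 64.3% and 24 CpG dinucleotides.

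The other peaks of Spry2 were weaker or lay farther away. Upstream, peaks with summits 833 and 2016 bp before the TSS had fold enrichments of 2.84 and 3.22, with −log10 q of 11.8 and 11.2. Within the gene, a second peak in the intron, 1603 bp from the TSS, had a fold enrichment of 2.93 at a −log10 q of 15.9. A peak of 828 bp lay in the coding exon, 3357 bp from the TSS, with a fold enrichment of 2.72 at a −log10 q of 10.5. The sixth peak lay 30479 bp from the TSS, beyond the end of the gene, and had the highest fold enrichment of the group, 7.52, with a −log10 q of 10.7. Only 3 input read ends fell in the 1 kb around its summit, against 73, 77, 46, 79 and 46 at the 5 peaks near the gene, in order of position. The part of the low input in the value of this distal peak was not tested. The nearest annotated TSS to it was that of Gm48970, at 3762 bp.

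Etv5, an ETS transcription factor of the PEA3 group and a target of FGF and ERK signaling, had a peak at its start and 3 more along its body. The gene lies on the minus strand of chromosome 16, at chr16:22381309-22439719. The peak at the start ran from 22438856 to 22439610, with a fold enrichment of 3.57 at a −log10 q of 21.1. It covered the TSS of 1 protein-coding transcript and ended 109 bp short of the outermost TSS. In its class of peaks near a TSS, 78.1% had a lower fold enrichment. Other transcripts that start within the gene had their TSSs 2342 and 7615 bp from the nearest peak.

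The sequence at this summit is shown for the ETS core that it holds. It covers chr16:22439253-22439516, cut to 264 bases that lie outside annotated UTRs, on the strand of the gene with CpG dinucleotides in capitals.
Etv5 TSS summit: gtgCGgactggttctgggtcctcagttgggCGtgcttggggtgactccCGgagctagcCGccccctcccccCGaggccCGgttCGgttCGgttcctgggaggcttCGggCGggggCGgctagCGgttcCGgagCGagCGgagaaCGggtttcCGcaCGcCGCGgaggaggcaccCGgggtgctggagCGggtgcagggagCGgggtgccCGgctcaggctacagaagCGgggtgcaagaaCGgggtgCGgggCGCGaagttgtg
The GC content was 72.3%, with 29 CpG dinucleotides. The ETS core CCGGAA was found once, on the opposite strand, where it reads TTCCGG from base 126 of the printed sequence.

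Along the body of Etv5, a peak in an intron, 30182 bp from the outermost TSS, had a fold enrichment of 4.42 at a −log10 q of 17.3. A peak in a coding exon, 46966 bp from that TSS, had a fold enrichment of 2.98 at a −log10 q of 4.75. The last one lay in the UTR at the end of the gene, with a fold enrichment of 6.04 at a −log10 q of 6.98. By −log10 q the peak at the start was the strongest of the 4, and by fold enrichment it ranked below the intronic peak and the one at the gene end. The input held 80 read ends in 1 kb around the summit at the start, 28 at the intronic one, 19 at the exonic one and 3 at the gene end. The intronic summit is shown as a site away from any annotated start, at chr16:22409387-22409686 on the strand of the gene with CpG dinucleotides in capitals.
Etv5 intron summit: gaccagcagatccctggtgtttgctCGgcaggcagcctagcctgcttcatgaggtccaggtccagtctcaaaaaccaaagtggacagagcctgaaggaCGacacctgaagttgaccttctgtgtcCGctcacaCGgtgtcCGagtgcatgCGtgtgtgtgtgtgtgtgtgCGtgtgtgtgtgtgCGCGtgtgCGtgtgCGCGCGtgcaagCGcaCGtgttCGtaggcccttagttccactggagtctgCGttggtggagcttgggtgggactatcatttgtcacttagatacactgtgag
Its GC content was 56.7%, with 17 CpG dinucleotides, several of which lie in a run of repeated TG and CG pairs. Of the bases in the called peak, 29.2% were masked as repeats in the reference. The median was 17.0% among peaks away from a TSS of a protein-coding gene.

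Map2k1 encodes MEK1, one of the kinases that PD0325901 inhibits. The gene lies on the minus strand of chromosome 9, at chr9:64185770-64253631. A peak from 64253043 to 64253498 lay 133 bp inside the TSS of its protein-coding transcript, with its summit in the coding part of the first exon. Its fold enrichment was 2.37 and its −log10 q 7.99. These are values near the middle of the peaks at a TSS, of which 34.5% had a lower fold enrichment and 50.6% a lower −log10 q. The summit sequence is shown as the binding nearest to the start of this drug target. It covers chr9:64253122-64253292, cut to 171 bases outside UTRs, on the strand of the gene with CpG dinucleotides in capitals.
Map2k1 TSS summit: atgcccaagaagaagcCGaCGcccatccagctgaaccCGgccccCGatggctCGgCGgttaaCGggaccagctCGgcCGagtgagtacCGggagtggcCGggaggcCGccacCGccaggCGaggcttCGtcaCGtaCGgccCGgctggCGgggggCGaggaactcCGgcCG
It had a GC content of 72.5% and 22 CpG dinucleotides.

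A second peak counted as lying at a TSS of Map2k1 through a noncoding transcript. It lay in an intron 66789 bp from the main TSS, and 872 bp from the start of a transcript annotated as a retained intron. Its fold enrichment was 4.53 and its −log10 q 6.34. The 1 kb around the start of that transcript held 1 input read end at a GC content of 50.1%, against 101 read ends and 63.7% at the main TSS.

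Of the 6 peaks within 50 kb of Map2k1, 3 lay at the starts of its downstream neighbours. One covered a TSS of Zwilch, with a fold enrichment of 2.75, one lay 4 bp from a TSS of Rpl4, with 4.24, and one covered a TSS of Snapc5, with 4.57 at a −log10 q of 32.0. Zwilch encodes a kinetochore protein, Rpl4 a ribosomal protein and Snapc5 a subunit of the snRNA activating complex. The last peak lay 14675 bp upstream of Map2k1 and 13101 bp from the nearest start of a protein-coding gene, that of Tipin. It had the highest fold enrichment of all 20 peaks, 8.01, above 97.1% of the 8819 peaks away from a TSS of a protein-coding gene, at a −log10 q of 13.0. The input held 4 read ends in 1 kb around its summit. The sequence of this summit is shown for comparison with those at the gene starts, at chr9:64268156-64268455 on the minus strand, with CpG dinucleotides in capitals.
Map2k1 upstream summit: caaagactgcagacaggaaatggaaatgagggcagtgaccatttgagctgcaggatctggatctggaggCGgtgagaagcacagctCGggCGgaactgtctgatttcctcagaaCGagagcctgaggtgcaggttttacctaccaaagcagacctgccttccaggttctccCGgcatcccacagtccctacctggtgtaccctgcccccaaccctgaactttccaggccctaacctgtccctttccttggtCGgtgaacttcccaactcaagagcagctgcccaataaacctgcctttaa
With 6 CpG dinucleotides and a GC content of 54.7%, it was poorer in both than the summits at the starts of Spry2, Etv5 and Map2k1.

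Spry4 and Etv4 had peaks only at a distance from their starts. Spry4, another Sprouty inhibitor, lies on the minus strand at chr18:38586247-38601415. Its single peak within 50 kb lay 2022 bp beyond the end of the gene and 17190 bp from the TSS, and 1100 bp from the TSS of another annotated gene, AC151580.1. This peak had a fold enrichment of 3.36, a −log10 q of 5.43 and a width of 276 bp, the smallest in the whole list. Etv4, a PEA3 group factor like Etv5, lies on the minus strand at chr11:101769742-101785371. The nearest peak lay 16615 bp upstream of its outermost TSS, with a fold enrichment of 4.26 at a −log10 q of 5.70, and a second one had its summit 24290 bp upstream, with 5.05 and 4.54. The third peak near Etv4 lay beyond the gene end, 7068 bp from a TSS of Dhx8, with a fold enrichment of 4.29 at a −log10 q of 15.0.

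The 4 genes with no peak within 50 kb are ERK targets, as are Spry2 and Etv5, which had peaks at their starts. Dusp4 and Dusp6 encode phosphatases that remove the activating phosphates from MAP kinases, and Dusp6 acts mainly on ERK. Dusp4 lies on the plus strand at chr8:34807297-34819894, and the nearest peak was 145164 bp from the gene and 157761 bp from its TSS. For Dusp6, on the plus strand at chr10:99263231-99267489, the nearest peak was 129354 bp away. Fos, an AP-1 transcription factor gene induced within minutes of ERK activation, lies on the plus strand at chr12:85473890-85477273, with the nearest peak 99279 bp away.

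The promoters of Dusp6 and Fos are shown as gene starts at which no peak was called. These are the 250 bases before the TSS from RefSeq, on the plus strand of GRCm38 with CpG dinucleotides in capitals, at chr10:99262981-99263230 for Dusp6 and at chr12:85473640-85473889 for Fos.
Dusp6 promoter: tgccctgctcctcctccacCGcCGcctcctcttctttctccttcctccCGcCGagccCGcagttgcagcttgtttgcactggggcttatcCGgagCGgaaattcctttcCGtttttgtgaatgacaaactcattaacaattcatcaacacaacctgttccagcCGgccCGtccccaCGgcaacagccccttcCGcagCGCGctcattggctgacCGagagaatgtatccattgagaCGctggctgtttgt
Fos promoter: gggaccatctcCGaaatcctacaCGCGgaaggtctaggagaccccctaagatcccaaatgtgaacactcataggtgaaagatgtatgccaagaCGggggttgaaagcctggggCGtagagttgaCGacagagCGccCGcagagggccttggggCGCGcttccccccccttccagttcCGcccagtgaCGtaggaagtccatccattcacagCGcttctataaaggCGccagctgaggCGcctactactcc
The Dusp6 sequence had 16 CpG dinucleotides and a GC content of 56.4%, and the Fos sequence 15 and 58.4%. Both were richer in CpG than the upstream peak of Map2k1.

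Egr1, a zinc finger transcription factor gene and another early target of ERK, lies on the plus strand at chr18:34859823-34864984. The nearest peak was 66327 bp from the gene and 70104 bp from its nearest TSS. The list held only peaks that passed the authors' q threshold of 0.005, so a gene without a peak may still bind HBO1 below that threshold.

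Input read ends fell in the 1 kb around the starts of all 9 genes, though at Spry2 the 100 bp before and after the TSS held only 1 and 2. Of the 31973678 read ends in the deposited input, 15963975 were first reads. Over the 1 kb around the outermost TSS, Map2k1 had 101 input read ends, with an exact Poisson 95% interval of 82.3 to 123. Such an interval covers counting error only and treats read ends as independent. Both ends of a fragment were counted, so the intervals given here are too narrow even for counting error. Spry2 had 37, with an interval of 26.1 to 51.0, and Etv5 had 75, with an interval of 59.0 to 94.0. Among the genes without a peak at a TSS, Spry4 had 98, Fos 95, Etv4 86, Dusp4 81, Egr1 68 and Dusp6 55. The 3 genes with a peak and the 6 without overlapped, with medians of 75 and 83.5. Every one of these read ends had a mapping quality of at least 20. The median over all protein-coding genes was 47, and the input of all 9 genes except Spry2 was above it.

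The GC content of the same 1 kb was 63.7% to 65.6% in the 3 genes with a peak and 54.6% to 65.2% in the 6 without. The ranges overlapped through Dusp4, at 65.2%, and the other 5 genes without a peak were below 63.7%. This split and the GC classes below go by the outermost TSS. At starts farther inside the gene, a protein-coding transcript of Egr1 had 67.7% and a noncoding one of Etv4 69.4%. Among the genes with a peak, an inner start of Etv5 had 66.9%. Over all protein-coding genes, the share with a peak at a TSS rose with GC content. It was 17.2% of 4022 genes at 50 to 55% GC, the class of Dusp6, and 22.5% of 4496 genes at 55 to 60%, the class of Etv4 and Egr1. In the class of 60 to 65%, which holds Map2k1, Spry2, Spry4 and Fos, it was 32.7% of 3435 genes. In that of 65 to 70%, which holds Etv5 and Dusp4, it was 46.3% of 1914 genes. The part of GC content in the split of the 9 genes was not tested.

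**Figure D2:**
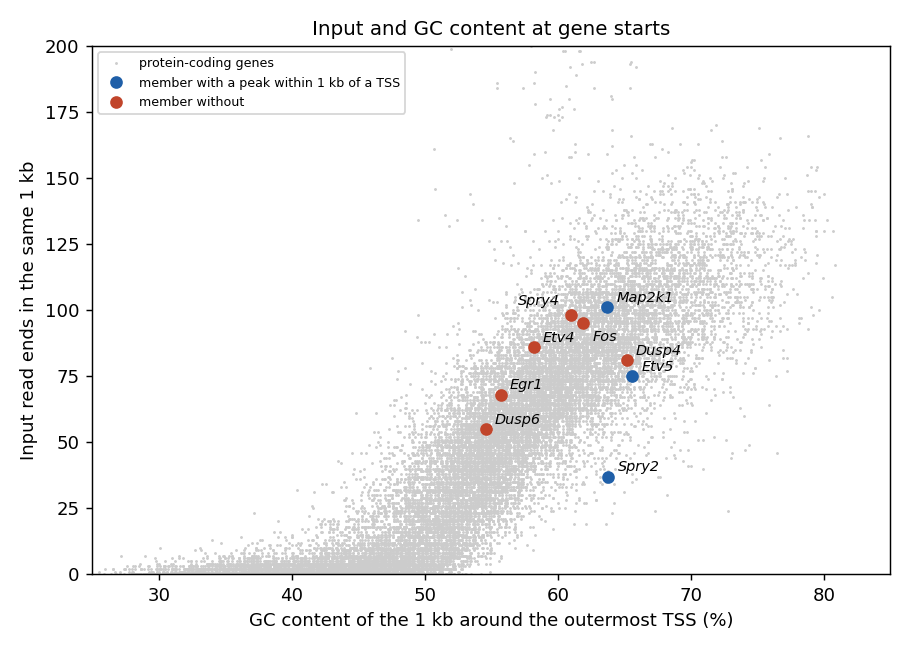
Input read ends (y axis) against GC content in percent (x axis), both in the 1 kb around the outermost TSS, for protein-coding genes (grey), genes of the list with a peak within 1 kb of a TSS (blue) and those without (red). Grey points beyond the axes, 83 genes, are not drawn. Spry2 lies at the lower edge of the genes with a similar GC content.

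Spry2 had few input read ends for its base composition. Among the 3435 genes of 60 to 65% GC, the median input was 85 read ends, and 1.11% had fewer than the 37 at Spry2. Map2k1, Spry4 and Fos, in the same class, had 101, 98 and 95. Etv5 and Dusp4 were also low for their class of 65 to 70% GC, with 75 and 81 against a median of 100. In that class 9.09% of genes had fewer than Etv5 and 15.7% fewer than Dusp4. Dusp6, Etv4 and Egr1 were above the medians of their classes. At Spry2 the 1 kb before the TSS held 82 input read ends and the 1 kb after it 48. The other 8 genes had more input after the TSS than before it, from 18 against 128 at Etv4 to 74 against 98 at Spry4. The peak over this start had a fold enrichment of 6.45 with 46 input read ends around its summit, and the upstream peak at 2016 bp had 3.22 with the same 46. The part of input in these values was not tested.

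**Figure D3:**
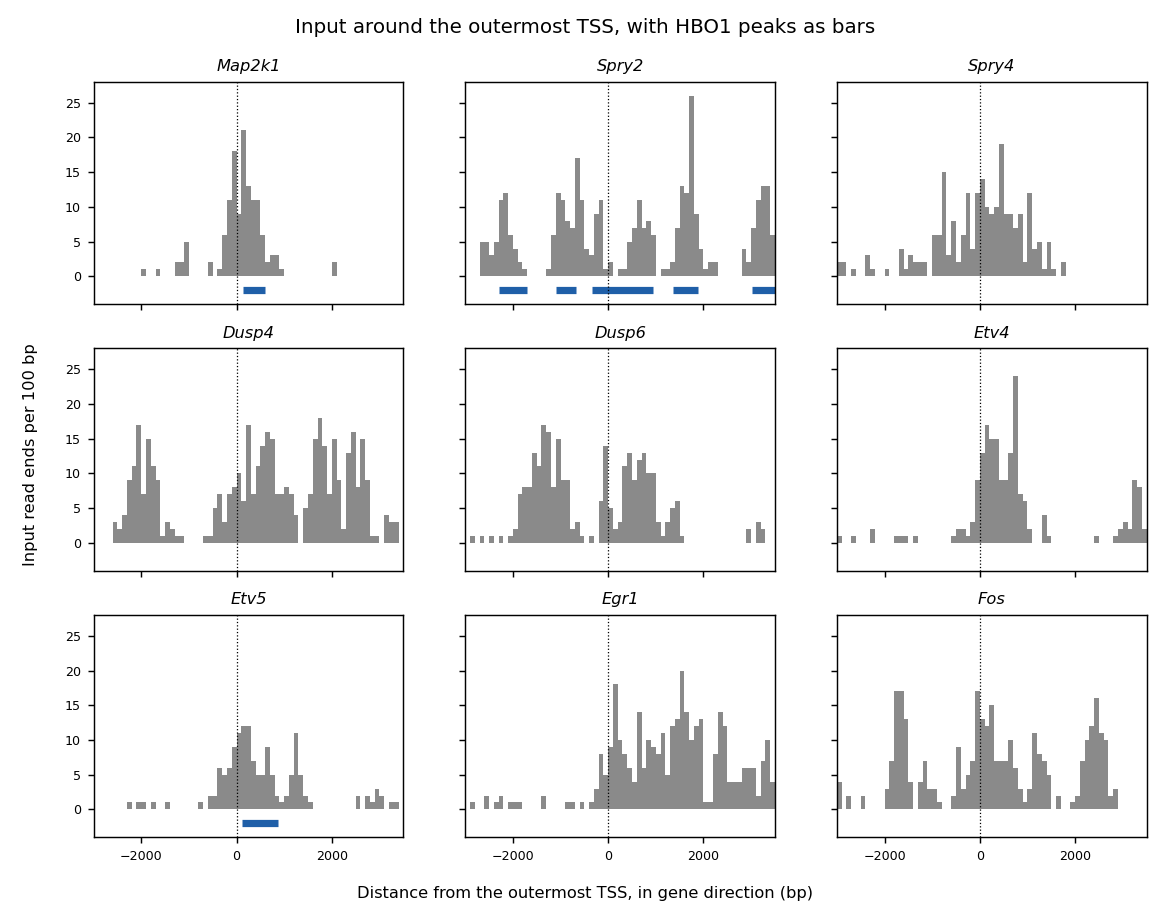
Input read ends per 100 bp (grey bars, y axis) by distance from the outermost TSS in bp, in the direction of transcription (x axis), with HBO1 peaks as blue bars under the profile. In Spry2 the input falls to near 0 at the TSS, inside the widest peak. Map2k1 and Etv5, with a peak near the TSS, have input over it, and so do Dusp4, Fos, Egr1 and Spry4, with no peak.

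Of the 20 peaks, the 4 with at most 4 input read ends around the summit had fold enrichments of 8.01, 7.52, 6.04 and 5.05. The peak over the start of Spry2, with 46 input read ends, lay among them at 6.45. The 3 strongest peaks by −log10 q were those at Spry2, with 58.5, Snapc5, with 32.0, and Etv5, with 21.1, and each lay at a gene start. In the whole list, the 5004 peaks near a TSS had a median fold enrichment of 2.63 and a median of 83 input read ends, and the 8819 peaks elsewhere 4.66 and 10. Of the 20 peaks, 12 lay away from any TSS of a protein-coding gene.

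**Figure D4:**
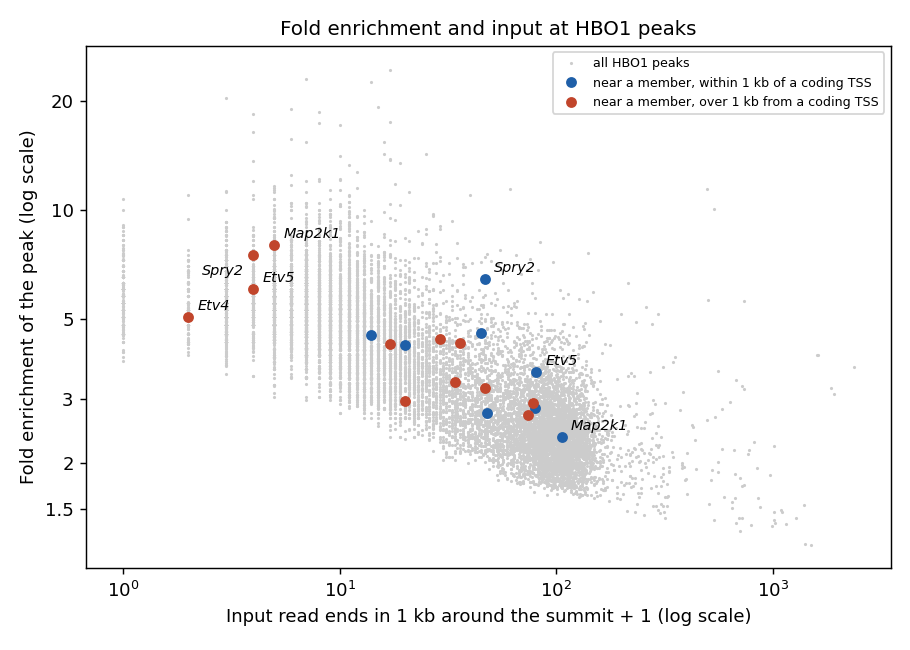
Fold enrichment of HBO1 peaks (y axis, log scale) against the input read ends in 1 kb around the summit plus 1 (x axis, log scale), for all 13823 peaks (grey) and for the 20 peaks near the listed genes, within 1 kb of a TSS of any protein-coding gene (blue) or farther away (red). The peak over the start of Spry2, with 46 input read ends and a fold enrichment of 6.45, lies above most peaks of similar input.

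Motifs of ERK-regulated and Oct factors were found in few of the 20 peaks. Both strands of the 300 bases around each summit were searched. The ETS core CCGGAA, bound by Etv4, Etv5 and Elk1, was found in 3 of these 20 windows, or 15.0%, and in 15.3% of those of all peaks. The matches lay at the summits of the upstream peak of Spry2 at 2016 bp, the coding exon peak of Etv5 and the peak at the Etv5 start. Read over its whole width, the peak over the Spry2 start held an ETS core as well, outside the summit window, in 1290 bp, and no share over all peaks was computed for whole widths. The AP-1 site TGANTCA, bound by Fos and Jun, was found in 1 of 20 windows, that of the distal peak of Spry2, against 4.55% over all peaks. That match lay outside the called peak, and the AP-1 site found within a called peak was the one in the peak at the Map2k1 start, outside its summit window. The CArG box, bound by SRF, was not found in these windows and was present in 1.66% of all peaks. The octamer ATGCAAAT and the MORE with at most 1 mismatch, both sites of Oct factors, were not found either, with shares of 0.405% and 0.0434% over all peaks. RefSeq promoters of 300 bases, 250 before and 50 after the start, were found for 5 of the 9 genes, with 6 promoters in all. The ETS core was present once in those of Map2k1 and Spry2, against 14.9% of 32851 promoters, and the 6 held none of the other motifs. The Spry2 promoter lies within the peak over its start, so its match is the one already given for that peak. A match is only a run of letters, and no match says only that the letters are not in that window.

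The rest of the ERK pathway was examined with a list of 103 genes by role, of which 102 were found in the annotation. This list, too, was chosen with earlier results of these data known. A peak lay at a TSS of 41 of the 102, or 40.2%, and of 38 of the 93 genes outside the 9, or 40.9%. The background over all protein-coding genes was 21.7%, but the list was also richer in GC at its starts, with a median of 62.6% over the 93 genes against 54.8%. Among genes with at least 60% GC, 29 of 63 in the list had a peak, or 46.0%, against 41.2% of 6318 protein-coding genes. No peak was found within 50 kb of 27 of the 102 genes, and of 38% of all protein-coding genes.

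By role, peaks at a TSS were found for 6 of 10 adaptors and exchange factors, 3 of 4 Ras genes, 2 of 3 Raf genes, 1 of 2 MEK genes, 4 of 8 scaffold genes and 4 of 11 effectors and other targets, against 21.7% of all protein-coding genes. Of 12 ligands, only Fgf4, the main FGF of ESCs, had a peak, with a fold enrichment of 3.27 at a −log10 q of 26.5. Of 11 receptors, peaks were found at Fgfr1, Fgfr2 and Kit. Fgf4 and Fgfr1 were counted through starts other than the outermost. Their outermost TSSs were 14040 and 5596 bp from the nearest peak. Map2k2, which encodes the paralog of MEK1, had none, with the nearest peak 7406 bp from a TSS. The median GC content at the starts was 58.8% for the ligands and 68% for the adaptors and exchange factors. These groups are small, and differences between them were not tested.

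**Figure D5:**
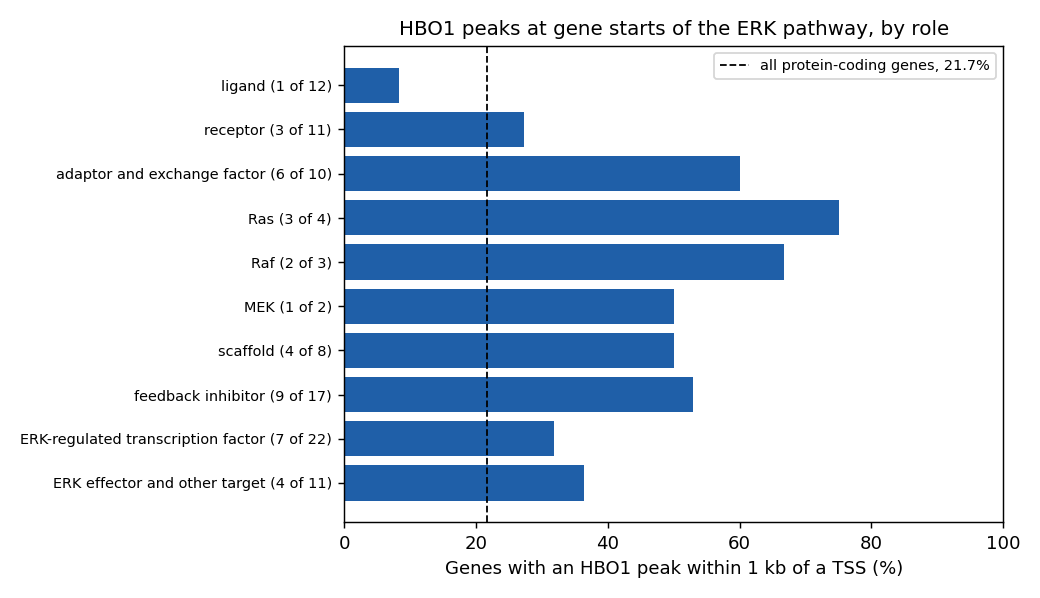
Share of ERK pathway genes with an HBO1 peak within 1 kb of a TSS (x axis, percent), by role (y axis, with counts). The dashed line is the share over all protein-coding genes, 21.7%, and the bars run from 1 of 12 ligands to 3 of 4 Ras genes.

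Among the feedback inhibitors, 9 of 17 had a peak at a TSS, or 52.9%, with a median GC content of 62.9%. The share was 21.7% over all protein-coding genes and 41.2% over those with at least 60% GC, and the families of 3 to 7 genes are too small to be read against it. In the Sprouty family, Spry1 had one with a fold enrichment of 2.69 at a −log10 q of 10.7, below the 6.45 and 58.5 of Spry2, and Spry4 had none. Spry1 and Spry2 thus made 2 of the 3 Sprouty genes examined, since Spry3 was not matched to the annotation, and 2 of 3 genes of the related Spred family had a peak as well. Of 7 Dusp genes, Dusp1 had 3 peaks at its TSSs, the highest in fold enrichment with 3.43 at a −log10 q of 3.82. Dusp7 had a peak with 2.23 and 6.78. The other 5, Dusp4 and Dusp6 among them, had none, and 4 of the 7 had no peak within 50 kb, against 38% of all protein-coding genes.

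Among the ERK-regulated transcription factors, 7 of 22 had a peak at a TSS, or 31.8%, against 21.7% of all protein-coding genes. None of the 4 Fos genes and none of the 4 Egr genes had one. The nearest peak was 22709 to 99279 bp from a TSS in the Fos family and 8924 to 70104 bp in the Egr family, with 81 to 111 and 68 to 114 input read ends. Of 3 Elk genes, Elk3 and Elk4 had a peak, with fold enrichments of 2.38 and 2.37. Of 3 Jun genes, Jund had a peak with a fold enrichment of 2.35 at a −log10 q of 8.34. Other early response genes with a peak were Ier2, with 3.58 and 28.6, and Srf, the partner of the ETS factors at the CArG box, with 2.04 and 5.12. The ETS repressor Erf, which ERK removes from the nucleus, had 2, the higher in fold enrichment with 3.17 and 15.4. Etv5 was the only one of 3 PEA3 group genes with a peak at a TSS. The families were drawn up after the values had been seen, and no count in them was tested.

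Outside the 9 genes, the highest fold enrichments at a TSS of the list were those of Lamtor3, a scaffold of MEK1, with 6.26, Mcl1, a survival factor stabilized by ERK, with 5.70, and the FGF receptor adaptor Frs2, with 4.93. Spry2, with 6.45, was above all of them. The −log10 q of Mcl1 was 70.8, above that of Spry2, while those of Lamtor3 and Frs2 were 8.53 and 6.94. Lamtor3 had 3 peaks at its TSSs and Frs2 had 2. For such genes the −log10 q is that of the peak with the highest fold enrichment, and another of their peaks may have a higher one. The lowest fold enrichments were those of Phlda1, with 1.88, Ksr1, with 1.94, and Srf, with 2.04.

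Markers of ESCs and of the feeder fibroblasts were set beside the labels. All 12 markers of mouse ESCs, such as Nanog and Sox2, had an HBO1 peak at a TSS, and none of 10 fibroblast markers, such as Col1a1 and Postn, did, against 21.7% of all protein-coding genes. The markers were chosen with earlier results of these data known, so these counts are no independent check of the labels. The 12 include Mir290a, a noncoding gene, which was left out of the medians that follow. The starts of these sets also differed in median GC content, 59.6% against 52.1%, and in median input, 67 against 15.5 read ends, and the part of either in the counts was not tested. These are binding data, and expression was not measured.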

How the data were processed

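HBO1 binding was measured by ChIP-seq in Oct1 deficient ESCs (2 ChIP samples, 1 input). Per the labels and the methods, the authors aligned reads to mm10 with Novoalign 4.03.01 and used MACS2 for peak calling (q 0.005, max-gap 100). How the ChIP samples were combined, and whether duplicates were removed, is not given in the sources used here. Each line of the peak list holds a summit with its fold enrichment, which is a ratio that the authors' caller computed against the local background, and a −log10 q, also as the authors deposited it. The lowest −log10 q that the authors deposited was 2.30. The column of peak scores, also deposited, was not used. The input was deposited as unnormalized positions of read ends with a mapping quality score from the authors' aligner. ChIP reads were not analysed here.

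The tools were Python 3.11.15 with pandas 2.3.3, numpy 2.4.6, scipy 1.17.1 and, for plots, matplotlib 3.10.9. TSSs came from GENCODE vM21, and distances were taken from the peak edge, with 0 for a TSS inside the peak. The input count is the number of read ends whose midpoint falls in the 1 kb centred on a TSS or summit. The outermost TSS is the one at the 5′ end of the gene. For a gene of the pathway list with several peaks at its TSSs, the values are those of the peak with the highest fold enrichment. Percentiles give the share of peaks or genes with a lower value. Distances and motif searches were tested on simulated data. Promoters came from the RefSeq table of GRCm38. The list of the 9 genes, the pathway list by role, the cell markers, the rule for named genes and the alternatives were chosen with earlier results of these data known. The 9 genes are all named, with any other gene whose TSS was nearer to one of their peaks, and of the pathway list the genes with a peak and the 3 highest and 3 lowest by fold enrichment. Map2k2, which has no peak, was named after its values were seen. A role of the pathway list is not reported here.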

Additional observations from a re-analysis of the deposited data

How the results depend on the processing

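The count of 3 listed genes with a peak at a TSS fell to 2, without Map2k1, when the TSS had to lie inside the peak or when a −log10 q of at least 10 was asked, and was 3 under the other 6 settings. With a fold enrichment of at least 3, Map2k1 was counted through the peak at its noncoding transcript. The 41 of 102 pathway genes with a peak became 17 when the TSS had to lie inside the peak, a setting met by 10.9% of all protein-coding genes. They became 13 at a fold enrichment of at least 3 and 18 when the −log10 q had to reach 10, and lay between 36 and 44 under the other settings. The share of all protein-coding genes was not computed for the cuts on fold enrichment and −log10 q, so these counts cannot be read against the background. The 20 peaks within 50 kb became 13 within 10 kb, 12 with the −log10 q at 10 or more, and 13 when only peaks nearer to a TSS of the listed gene than to that of any other annotated gene, noncoding genes included, were counted. They were 14 at a fold enrichment of at least 3, 16 when peaks within 1 kb of each other were merged, 18 when the −log10 q had to reach 5, and 26 within 100 kb. The median input over the 30 distinct TSSs was 74 read ends, and 129 when 2 kb were counted, since the window was wider. Leaving out each replicate was not run, because a single peak list was given, which was assumed to combine the ChIP samples. No paired analysis was possible because there was 1 peak list and no result comes from a test.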
